A study of Sus scrofa with 24 samples.

Results

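The growth from 28 to 188 days post natum (dpn) in pigs was described by comparing the arrays labelled 188 dpn with those labelled 28 dpn, 6 of each, which are 12 of the 24 arrays of the series. All animals were offspring of German Landrace gilts that received a high protein diet in gestation, so diet and breed were shared by both groups and no diet effect can be read here. Messenger RNA was measured on Affymetrix Porcine Genome arrays, 1 per animal, with signal in scaled intensity units. The other 12 arrays, of 94 days post conception (dpc) and 1 dpn, entered the fit only to share the estimate of the spread. Each stage had offspring of 3 gilts, and which animals were littermates is not stated. The p-values treat the 6 animals as independent, measure only the spread between these samples, and are too small by an unknown amount where animals shared a mother.

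The sample labels name liver and the series title names muscle. The defining markers of liver and muscle were therefore checked first. The 7 measured of 10 skeletal muscle markers had their median at the 99.9 percentile of signals in each of the 12 arrays, and 0 of the 7 passed the test. The median of the 10 liver markers lay between the 35.4 and 54.9 percentile at 28 dpn and between the 21.0 and 98.3 percentile at 188 dpn. The muscle markers thus go against a label of liver alone. The arrays are described here as arrays of muscle RNA, of which 3 at 188 dpn also had liver transcripts near the top of the range, and whether tissues were mixed was not tested.

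At 188 dpn 3 arrays stood apart in liver transcripts. ALB, which encodes albumin, the plasma protein made in liver, had a signal of 56933, 45919 and 12421 in animals 1, 2 and 3 and of 123, 80.1 and 281 in animals 4, 5 and 6. At 28 dpn it ranged from 63.6 to 1043. The summed signal of the 10 liver markers was 24471 to 151652 in animals 1 to 3, 1268 to 2296 in animals 4 to 6 and 3054 to 5960 at 28 dpn. Each result below was therefore also computed without the 3 arrays whose ALB signal was over 10000, and a change is said to hold when it passed the same threshold in the same direction in that second fit. The 188 dpn arrays left in that fit are part of the first one too, so a change that holds has not been seen in new animals. The 5′ to 3′ signal ratio of the control transcript EF1A lay between 0.638 and 0.696 in the younger group and between 0.512 and 0.656 in the older, and its part in the results was not tested.

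Skeletal muscle of the pig is formed before birth and grows afterwards mainly by enlargement of existing fibres, whose contractile isoforms and enzymes mature during the suckling and fattening periods. Fibres grow when protein synthesis exceeds breakdown, and the main routes of breakdown are the ubiquitin proteasome pathway, in which ligases such as FBXO32 mark proteins, and autophagy. Between the fibres lie satellite cells, capillaries, fibroblasts with their collagen matrix, nerve endings and immune cells, whose transcripts are measured with those of the fibres. In such bulk samples, fewer cells of a type and less RNA per cell cannot be told apart.

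More transcripts were lower than higher at the older stage, and the excess of falls depended on how the arrays were scaled. Of 23935 probe sets, 987 (4.12%) had a higher and 2511 (10.5%) a lower signal in the older animals by limma's moderated test at an adjusted p of 0.05 or less, 3498 (14.6%) in all. Of these, 421 (1.76% of all probe sets) and 1421 (5.94%) differed by at least 2-fold. Higher probe sets were 28.2% of those called with the values as deposited, 42.0% after quantile normalization and 62.9% when each array was centred on its median. The median difference of all probe sets was -0.18, 0.01 and 0.09 in the same order, and the median signal of an array lay between 138 and 147 at 28 dpn and between 109 and 126 at the older stage. When arrays were centred, CS, H2AFZ, IDH3B, NDN, PABPC1, PDIA3, PDIA6, PLAGL1, PRDX1, SDHA and TAPBP, all described below as lower, no longer passed. In another fit all arrays were quantile normalized together and those of bright ALB were then left out, so they still took part in the normalization. There, 16 of the genes named below as holding no longer passed: CD34, CNN1, FOS, GRB10, IDH3B, IRF1, JUN, NDN, PDIA3, PHLDA2, PSMA3, SLA-6, SYNM, TAPBP, UCP2 and ZBP1. Differences below are log2 differences of 188 minus 28 dpn ± SE, with n = 6 per stage, on the deposited scale, on which the median of the 6765 genes, each read by its brightest probe set, was -0.12.

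Of the genes, 417 (6.16%) rose and 965 (14.3%) fell, 1382 (20.4%) in all. In 322 of the rises and 666 of the falls the stages did not overlap, against 6.59% and 11.8% of all genes with 188 dpn wholly above or below. Without the 3 arrays of bright ALB, 199 of the 417 held and 552 of the 965 held, which is 2.94% and 8.16% of all genes and together 751 (11.1%). Among probe sets 482 (2.01%) rises and 1402 (5.86%) falls held, 1884 (7.87%) in all. Of the genes that did not hold, 204 of 218 rises and 405 of 413 falls kept a difference within 1.5-fold of their first size. None of the 1382 genes changed sign. The median size of the called rises was 0.81 with all arrays and 0.81 without the 3, and that of the falls was 1.01 and 0.99. The other 14 rises and 8 falls shrank by more than 1.5-fold, among them C5, PROC, SERPINA3-2 and UGT2B31, described last.

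**Figure D1:**
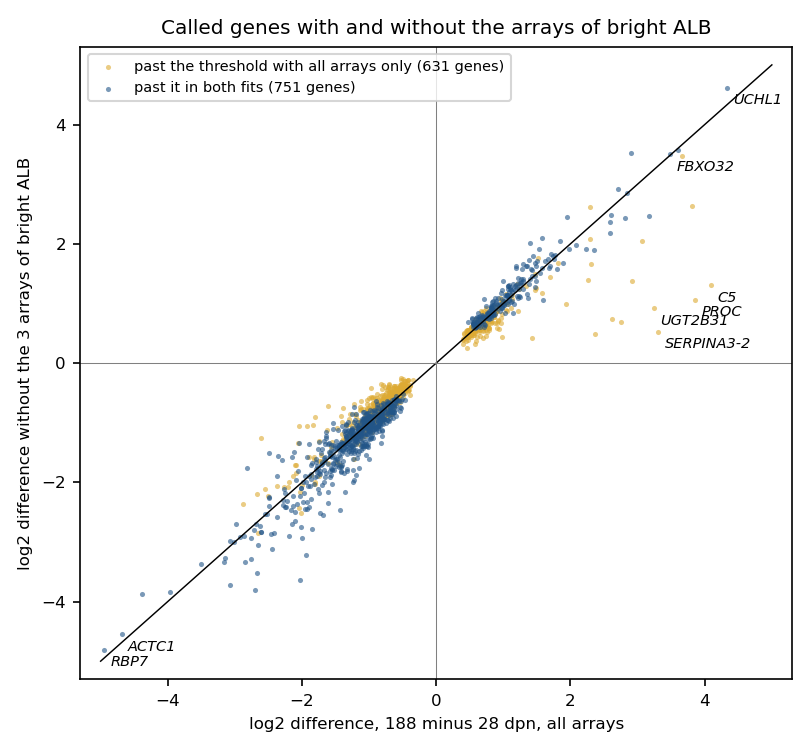
Each point is 1 of the 1382 called genes, with its log2 difference of 188 minus 28 dpn over all arrays (x axis) and without the 3 arrays of bright ALB (y axis). Blue points are the 751 genes past the threshold in both fits, yellow points the others, and the line marks equal values. Most genes lie near it, among them ACTC1 at -4.68 and -4.55, while C5, PROC, UGT2B31 and SERPINA3-2 fall from over 3 to 1.30, 1.07, 0.92 and 0.52.

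The 14 largest rises that held are described first, and they were chosen by size alone. FBXO32, the muscle ubiquitin ligase also called atrogin-1, had a lowest, median and highest signal of 511, 616 and 703 at 28 dpn and 3733, 7612 and 9739.6 at 188 dpn (3.49 ± 0.44, adjusted p = 1.12e-05). By the naming rule, the animals of the older stage all lay above those of the younger in each of these 14 genes. MSS51, a mitochondrial protein of muscle, stood at 1289, 1862 and 3496 at 28 dpn and 7401, 12725 and 20756 at 188 dpn (2.59 ± 0.26, adjusted p = 1.18e-06). The 3 highest values of MSS51 were in the arrays of bright ALB, and the differences without these arrays were 2.18 for MSS51 and 3.50 for FBXO32.

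UCHL1, a ubiquitin hydrolase abundant in neurons, had 23.5, 43.5 and 213 at 28 dpn and 781, 1446 and 1679 at 188 dpn, and its mean at 28 dpn was under the background level of 74.7 set from control probe sets. It was at least 12.1-fold higher at 188 dpn (SD of log2 values 1.38 and 0.48, adjusted p = 2.72e-04). MRLN, which encodes myoregulin, a small peptide that inhibits the calcium pump of the sarcoplasmic reticulum, stood at 54.7, 125 and 255 at 28 dpn and 348, 928 and 1799 at 188 dpn (2.90 ± 0.52). Its 3 highest arrays at 188 dpn were those without bright ALB, and the difference was 3.53 without the others.

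Among enzymes, ME1, the cytosolic malic enzyme that makes NADPH, had 296, 335 and 611 at 28 dpn and 1836, 2267 and 3268 at 188 dpn (2.71 ± 0.39, adjusted p = 5.01e-05). MAOB, a monoamine oxidase of the outer mitochondrial membrane, had 42.0, 92.3 and 137 at 28 dpn and 271, 606 and 1061 at 188 dpn (2.82 ± 0.58). FNTB, the beta subunit of protein farnesyltransferase, had 361, 484 and 633 at 28 dpn and 1518, 1996 and 6842 at 188 dpn (2.34 ± 0.27, adjusted p = 3.85e-06). Its partner FNTA, the alpha subunit, is among the largest falls, with 18192, 23444 and 29593 at 28 dpn and 1962, 2840.1 and 5013 at 188 dpn (-2.99 ± 0.23, adjusted p = 4.81e-08). The probe sets of FNTA disagreed, since 1 of 3 was lower and their differences ran from -2.99 to 0.37, whereas both probe sets of FNTB were higher.

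The remaining rises of the 14 came from regulators and stress genes. NANOS1, an RNA-binding repressor of translation, had 72.4, 182 and 216 at 28 dpn and 556, 1475 and 2773 at 188 dpn (3.16 ± 0.40), but its other probe set was at -0.04. FOS, of the AP-1 transcription factor, had 281, 1452 and 4219 at 28 dpn and 4649.6, 8311 and 13829 at 188 dpn (2.84 ± 0.60). HSPA6, a stress-induced member of the Hsp70 family, had 119, 162 and 219.6 at 28 dpn and 461, 1108 and 1653 at 188 dpn (2.59 ± 0.34). The other 4 were TMEM140 (3.60 ± 0.64), SLC35F5 (1.98 ± 0.26), the beta-defensin DEFB1 (2.60 ± 0.58, with a second probe set at -0.23) and LOC100523672, a locus without a gene name (2.08 ± 0.34). The adjusted p of the 14 rises ranged from 1.18e-06 for MSS51 to 0.00326 for DEFB1.

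**Figure D2:**
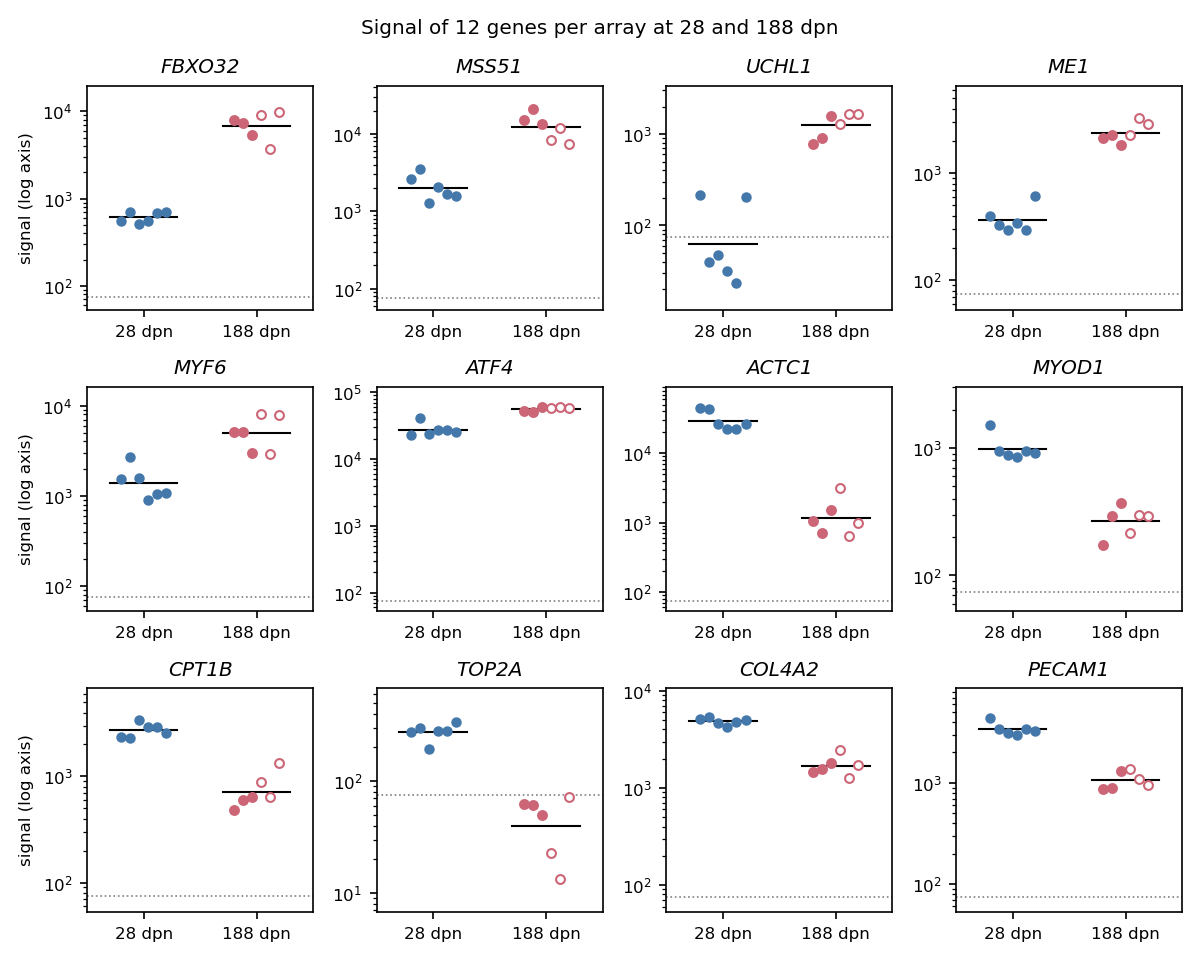
Signal per array on log axes for 12 genes at 28 dpn (blue) and 188 dpn (red), with a bar at the geometric mean of 6 arrays. Filled red points are the 3 arrays of bright ALB and open red points the other 3, and the dotted line marks the background level of 74.7. In all 12 genes the stages do not overlap, and filled and open points of 188 dpn lie on the same side of the 28 dpn points.

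Of the 14 largest falls that held, 3 stayed above background at 188 dpn: ACTC1, SERHL2 and FNTA. The largest was that of ACTC1, the cardiac alpha actin that is also the actin of developing skeletal muscle. Its signal was 22006, 26398 and 45094 at 28 dpn and 641, 1021 and 3199.9 at 188 dpn (-4.68 ± 0.29, adjusted p = 2.86e-09), and -4.55 without the 3 arrays. The highest 188 dpn animal lay well below the lowest of 28 dpn. CASQ2, the calsequestrin of slow and cardiac muscle, had 308, 557 and 739.6 at 28 dpn and 14.5, 42.3 and 122 at 188 dpn and was at least 6.09-fold lower (SD 0.46 and 1.15). SERHL2, a serine hydrolase-like protein, fell from 4385 to 493 (-3.15 ± 0.27, adjusted p = 2.05e-07).

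A further 7 of the 14 have known roles in cell division and are described together, a grouping made after their values were seen. TOP2A, the topoisomerase of mitotic chromosomes, had 192, 279.7 and 339 at 28 dpn and 13.4, 55.2 and 72.4 at 188 dpn and was at least 3.66-fold lower (SD 0.27 and 0.97). MYBL2, a cell cycle transcription factor, was at least 2.1-fold lower (SD 0.47 and 1.12), with a second probe set at 0.23. RRM2, which makes deoxynucleotides, was at least 2.06-fold lower (SD 0.57 and 1.45), the cyclin CCNB2 at least 1.61-fold lower (SD 0.17 and 1.81) and the ubiquitin-conjugating enzyme UBE2C at least 4.4-fold lower (SD 0.28 and 1.26). PCLAF, which binds the replication clamp, was at least 2.69-fold lower (SD 0.27 and 1.71) and PIMREG, a mitotic protein, at least 2.36-fold lower (SD 0.40 and 1.28). At 188 dpn all 7 had means under background, so their true folds are not bounded from above.

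The other large falls were RBP7, a retinol-binding protein, which was at least 5.41-fold lower (SD 0.31 and 1.08), P3H4, which acts in collagen modification, at least 3.43-fold lower (SD 0.38 and 0.67), and the nucleic acid sensor ZBP1, at least 2.98-fold lower (SD 0.47 and 1.17). ZBP1 was the weakest of the 14, with an adjusted p of 0.0056 and of 0.0496 without the 3 arrays.

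Contractile genes of the fast fibre did not pass the test in either direction, while several of developing, cardiac and nonmuscle type fell. Of 9 measured adult fast fibre genes, 0 rose and 0 fell, with differences from -0.10 to 0.32. MYL1, the fast myosin light chain and the brightest of them, had 65997, 71836 and 86177 at 28 dpn and 57352, 72428 and 77620.4 at 188 dpn (-0.07 ± 0.12, adjusted p = 0.796). The stages of MYL1 overlap, and its difference was 0.0062 without the 3 arrays and 0.20 with arrays centred. Of 10 slow fibre genes, 0 rose and 2 fell (20.0% against 14.3% of all genes), CASQ2 and the slow tropomyosin TPM3 (from 2459 to 1026, -1.26 ± 0.21), and both held.

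Of 8 genes listed as embryonic, neonatal and cardiac contractile, 5 fell and 4 of these held, against 14.3% and 8.16% of all genes. The median difference of the 8 was -1.15, and -1.17 without the 3 arrays. Of the 4 that held, only ACTC1 is an actin of developing and cardiac muscle. The others, TPM4, ACTA2 and MYL6, are of cytoskeletal, smooth muscle and nonmuscle type, so the held falls do not describe developmental isoforms as a group. Beside ACTC1, the cytoskeletal tropomyosin TPM4 had 1427, 2024 and 2298 at 28 dpn and 550.4, 779 and 1060.1 at 188 dpn (-1.33 ± 0.22). ACTA2, the smooth muscle actin, had 10449, 12574 and 16609.7 at 28 dpn and 4919, 5834 and 6424 at 188 dpn (-1.16 ± 0.15), and the nonmuscle light chain MYL6 fell from 4825 to 2193 (-1.14 ± 0.24). In these 3 genes, too, the stages did not overlap. TNNT2, the cardiac troponin T, named after its values were seen, was at least 2.34-fold lower with all arrays (SD 0.37 and 1.25), with stages that overlap, and its adjusted p was 0.0748 without the 3.

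Structural proteins around the Z-disc, the anchor of the thin filaments, were higher in some members. Of 14 giant and Z-disc genes, 5 rose and 0 fell, against 6.16% and 14.3% of all genes, and 2 rises held. PDLIM3, which binds alpha-actinin, had 10297, 10702 and 12034 at 28 dpn and 28071, 36387 and 40328 at 188 dpn (1.68 ± 0.29). SYNM, an intermediate filament protein, had 3832, 4428 and 5633 at 28 dpn and 9797, 13284 and 14735 at 188 dpn (1.48 ± 0.30). Both were higher in every 188 dpn animal than in any at 28 dpn. TTN, titin, the brightest of the list, had 39352, 46002 and 49939 at 28 dpn and 42770.2, 48868 and 52177 at 188 dpn (0.12 ± 0.17, adjusted p = 0.734), and its stages overlap. ANKRD1, a stretch-responsive ankyrin repeat protein, rose, with a range of 254 to 2400.0 at 28 dpn and of 1266 to 22152 at 188 dpn (3.06 ± 0.89, adjusted p = 0.0229), but its difference was 2.05 (adjusted p = 0.3) without the 3 arrays.

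The myogenic factors moved in opposite directions. MYF6, the factor that prevails in mature fibres, had 894, 1313 and 2718 at 28 dpn and 2872, 5142 and 8038 at 188 dpn (1.84 ± 0.31, adjusted p = 2.98e-04), though its second probe set was at -0.10. MYOD1, the factor of myoblasts and of fast fibres, had 843, 925 and 1506 at 28 dpn and 172, 294 and 371 at 188 dpn (-1.89 ± 0.22, adjusted p = 5.71e-06), and both of its probe sets were lower. The stages did not overlap in either gene. CD34, found on satellite cells and endothelium, fell from 609.6 to 308 (-0.98 ± 0.21). Over the whole list of 10 myogenic and satellite cell genes, 2 rose and 3 fell, and 1 and 2 of these held, against 6.16% and 14.3% of all genes that rose and fell and 2.94% and 8.16% that held.

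Of 11 genes of the IGF and growth hormone axis, 0 rose and 3 fell, or 27.3% against 14.3% of all genes, and 2 falls held, or 18.2% against 8.16%. IGF2, the fetal insulin-like growth factor, had 1404, 4299 and 6741 at 28 dpn and 350.4, 904 and 1439 at 188 dpn (-2.22 ± 0.37, adjusted p = 2.72e-04). Its stages overlap slightly, as the lowest animal of 28 dpn lay just below the highest of 188 dpn, and 8 of its 13 probe sets were lower and 0 higher. PHLDA2, an imprinted gene that restrains growth of the placenta, fell from 225 to 105 (-1.10 ± 0.21).

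Of 9 imprinted growth genes, 1 rose and 5 fell, or 11.1% and 55.6% against 6.16% and 14.3% of all genes, and 1 and 2 of these held. IGF2 is counted in this list as well as in that of the IGF axis. NDN, necdin, a growth suppressor, had 1745, 1787 and 1852 at 28 dpn and 960.3, 1036 and 1154 at 188 dpn (-0.78 ± 0.16), with a narrow spread within each stage. GRB10, an adaptor that dampens insulin and IGF receptor signalling, rose against the others, with 2179, 2908 and 3635 at 28 dpn and 5073, 6639.5 and 10102 at 188 dpn (1.27 ± 0.29, adjusted p = 0.00471). PLAGL1, a zinc finger regulator named after its values were seen, fell from 312 to 149 with all arrays (-1.06 ± 0.27), and its adjusted p was 0.0849 without the 3.

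Of 22 measured genes of cell cycle and replication, 15 fell and 0 rose, which is 68.2% against 14.3% of all genes, and 12 of the 15 held. Their median difference was -1.44, and -1.68 without the 3 arrays. H2AFZ, a histone variant and the brightest of them, had 6205, 6885 and 7444 at 28 dpn and 3509.8, 3885 and 4672 at 188 dpn (-0.75 ± 0.18), though its adjusted p was 0.0555 without the 3 arrays. PCNA, the replication clamp, named after its values were seen, fell from 895 to 410.2 (-1.13 ± 0.19) with 28 dpn animal 2 at 469, within the 188 dpn range. In this animal the median of the list was 0.45 below the stage mean in log2, while the other 5 lay within 0.09 of it.

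Few ribosomal protein genes passed the test. Of 55 cytosolic ribosomal protein genes, 0 rose and 1 fell, or 0% and 1.82% against 6.16% and 14.3% of all genes. Their median was -0.02, against -0.12 for all genes. The exception, RPL3, had 8463, 9199 and 10013 at 28 dpn and 3485, 4894 and 6029.5 at 188 dpn (-0.98 ± 0.14, adjusted p = 3.82e-05). Of 22 translation factors, 1 rose and 2 fell, or 4.55% and 9.09% against 6.16% and 14.3% of all genes, and the 2 falls held. These falls were the helicase EIF4A1 (from 3708 to 1822, -1.03 ± 0.15) and the poly(A)-binding protein PABPC1 (from 6454 to 4079.9, -0.66 ± 0.15), whose stages overlap. Related genes outside the list were not counted. Among them EIF4E2 (-0.54) and EF1ALPHA (-0.57) fell and held, and EIF4G3 (0.75) rose but did not hold.

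Of 29 proteasome genes, 13 rose and 0 fell, which is 44.8% against 6.16% of all genes, and 10 of the 13 held. All 29 had a difference above 0, the median was 0.49, and it was 0.46 without the 3 arrays and 0.38 after quantile normalization. PSMD11, a lid subunit of the regulatory particle, had 5848, 6859 and 8839.9 at 28 dpn and 13695, 16507 and 17213 at 188 dpn (1.20 ± 0.17), and all 3 of its probe sets were higher. PSMD2, a base subunit, had 1954, 2398 and 2706 at 28 dpn and 3446, 4769.5 and 5022 at 188 dpn (0.98 ± 0.13). The core subunit PSMA3 (from 7122 to 12584, 0.82 ± 0.18) and the ATPase PSMC2 (from 3692 to 6487, 0.81 ± 0.14) rose as well. The brightest member, PSMA7, had 15712, 16329.9 and 21244 at 28 dpn and 16737, 21753 and 26613 at 188 dpn (0.32 ± 0.18, adjusted p = 0.289) and did not pass.

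Of 14 genes of atrophy ligases, autophagy and calpains, 6 rose and 0 fell, or 42.9% rises against 6.16% of all genes, and 3 rises held, or 21.4% against 2.94%: FBXO32, SQSTM1 and CTSD. SQSTM1, the autophagy receptor p62, had 4052, 4659 and 5917 at 28 dpn and 9126, 12974 and 17686 at 188 dpn (1.43 ± 0.27, adjusted p = 8.13e-04). CTSD, the lysosomal protease cathepsin D, rose from 1183 to 1795 (0.60 ± 0.15). Autophagy genes outside the list were not counted, among them ATG3, which rose (0.73), and ATG9B, which fell (-2.15), and both held. CAST, calpastatin, the calpain inhibitor studied in meat tenderness and named here after its values were seen, rose from 478 to 981 with all arrays (1.04 ± 0.26). The probe sets of CAST disagreed, with 1 of 5 higher and differences from -1.18 to 1.04, and its adjusted p was 0.119 without the 3.

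Of 15 genes of the amino acid response and of protein folding in the endoplasmic reticulum, 3 rose and 4 fell, or 20.0% and 26.7% against 6.16% and 14.3% of all genes, and 2 and 3 of these held. The list median was -0.11, near that of all genes, but -0.34 without the 3 arrays, against -0.11 for all genes in that fit. The shift was -0.21 to -0.09 in the arrays of bright ALB, -0.35 to -0.33 in the other 188 dpn arrays and -0.11 to 0.10 at 28 dpn. ATF4, the transcription factor translated when amino acids are scarce, had 22875, 25939 and 41285 at 28 dpn and 51299.5, 58680.0 and 59904 at 188 dpn (1.06 ± 0.15, adjusted p = 5.09e-05), with 28 dpn animal 2 the closest to the older stage. CEBPB had 2925, 4598 and 5824 at 28 dpn and 7639, 12079 and 14068 at 188 dpn (1.41 ± 0.31). Some chaperones of the endoplasmic reticulum went the other way: PDIA6 fell from 3125 to 1892 (-0.72 ± 0.17), CALR fell from 1433 to 887 (-0.69 ± 0.13) and PDIA3 fell from 1571 to 1001 (-0.65 ± 0.18). The cochaperone DNAJB9 rose with all arrays (0.87) and did not hold.

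Of 17 listed heat shock proteins, 7 rose and 0 fell, or 41.2% rises against 6.16% of all genes. Within the list only 1 of the 7, BAG3, held, or 5.88% against 2.94% of all genes. Related genes outside the list were not counted. Among them HSPA6 (2.59), HSP70.2 (2.23) and DNAJB2 (1.47) rose and held, and DNAJA4 (-1.70) fell and held. BAG3, a partner of Hsp70 in selective autophagy, had 3527, 4076 and 4999.6 at 28 dpn and 7015, 9223 and 9616 at 188 dpn (1.09 ± 0.14, adjusted p = 2.10e-05). The list median was 0.44 with all arrays and 0.22 without the 3. Its shift from 28 dpn was 0.39 to 0.67 in the arrays of bright ALB and 0.23 to 0.44 in the others.

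Of 29 fat oxidation genes, 11 fell and 0 rose, or 37.9% against 14.3% of all genes, and 8 falls held, which is 27.6% against 8.16%. The other 18 did not pass. CPT1B, which admits fatty acids to muscle mitochondria, had 2306, 2742 and 3404 at 28 dpn and 478, 638 and 1342 at 188 dpn (-1.92 ± 0.23, adjusted p = 6.04e-06). FABP3, the fatty acid-binding protein of muscle, had 22063, 24083 and 31340.0 at 28 dpn and 5572, 8971 and 13995 at 188 dpn (-1.54 ± 0.21, adjusted p = 2.24e-05). In both genes the stages did not overlap, and both were lowest in arrays of bright ALB, with differences of -1.58 and -1.11 without them. ANGPTL4, an inhibitor of lipoprotein lipase, fell from 1021 to 339 (-1.59 ± 0.26), and UCP2, whose means were under background in both stages, also passed. PDK4, the kinase that shuts off pyruvate dehydrogenase, named after its values were seen, had 2904, 6267 and 10739 at 28 dpn and 5915, 16653 and 36565 at 188 dpn (1.13 ± 0.44, adjusted p = 0.0959) and did not pass.

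Of 45 oxidative phosphorylation genes, 16 fell and 1 rose, or 35.6% falls against 14.3% of all genes, and 1 fall held, or 2.22% against 8.16%. The list median was -0.41, -0.31 without the 3 arrays and -0.15 with each array centred. In the arrays of bright ALB its shift was -0.72 to -0.42 and in the others -0.40 to -0.26, all below the 28 dpn range of -0.12 to 0.07. Within the list, the fall that held was ATP5G1, a subunit of the ATP synthase ring. It had 31816, 36864 and 39978 at 28 dpn and 14865, 21610.1 and 23152 at 188 dpn (-0.88 ± 0.15, adjusted p = 4.13e-04). Related genes outside the list were not counted. Among them the cytochrome oxidase subunits COX7A2 (-1.02, and -0.94 without the 3 arrays) and COX6A1 (-0.93 and -1.11) fell and held.

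Of 17 citric acid cycle genes, 6 fell and 1 rose, or 35.3% and 5.88% against 14.3% and 6.16% of all genes. A single fall held, or 5.88% against 8.16%, that of IDH3B (from 1692 to 1032, -0.71 ± 0.15). SDHA, of succinate dehydrogenase, fell from 17823 to 11496 with all arrays and had an adjusted p of 0.259 without the 3. CS, citrate synthase, fell from 23636 to 16420.0 with all arrays and had an adjusted p of 0.263 without the 3. The difference of CS was -0.53 with all arrays and -0.35 without the 3. Both genes were named after their values were seen. The brightest oxidative phosphorylation gene, ATP5E, had 37256, 41480.5 and 42452 at 28 dpn and 31199, 35497 and 37646 at 188 dpn (-0.22 ± 0.13, adjusted p = 0.287). The part of the liver transcripts in these lower values was not tested.

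**Figure D3:**
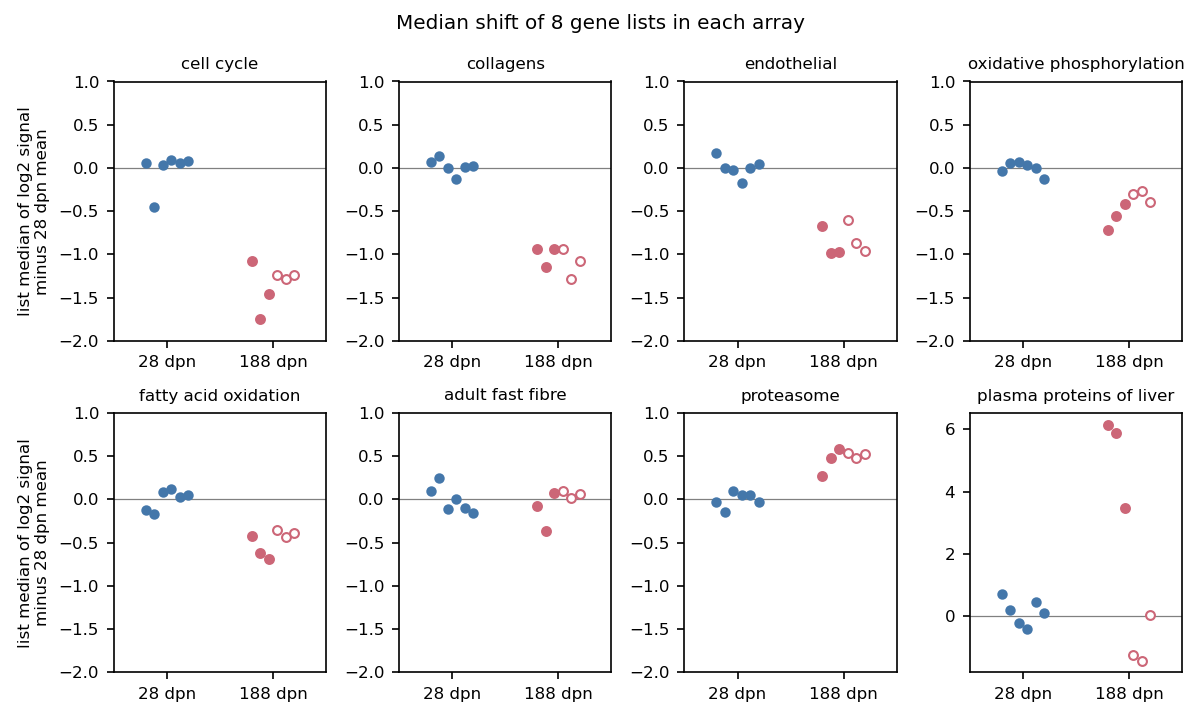
Each point is 1 array, and the y axis gives the median over a list's genes of log2 signal minus the gene's 28 dpn mean, for 28 dpn (blue) and 188 dpn (red, filled for the arrays of bright ALB). Cell cycle, collagen and endothelial lists lie below the 28 dpn range in all 6 arrays and the proteasome list above it. The plasma protein list, on its own axis, is high only in the 3 filled arrays, at 3.48 to 6.14.

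Of 17 glycolysis genes, 1 rose and 5 fell, or 5.88% and 29.4% against 6.16% and 14.3% of all genes, and 1 and 4 held. The list median of -0.16 was near that of all genes. SLC16A3, a lactate exporter, had 3721, 4017 and 4721 at 28 dpn and 559, 892 and 1198 at 188 dpn (-2.27 ± 0.40). ENO1, the enolase of most tissues other than mature muscle, had 6147, 7713 and 9958 at 28 dpn and 2015, 2731 and 3537 at 188 dpn (-1.54 ± 0.19, adjusted p = 6.44e-06). LDHB, the heart form of lactate dehydrogenase, fell from 17431 to 8201 (-1.09 ± 0.16) and the hexokinase HK1 fell from 558 to 273 (-1.03 ± 0.22). PKM, pyruvate kinase, was the rise, with 755, 903 and 922 at 28 dpn and 1661, 1923 and 2026 at 188 dpn (1.12 ± 0.12, adjusted p = 1.69e-06), while its second probe set was at 0.30. GAPDH, the brightest, had 54827, 64403 and 83099 at 28 dpn and 42251, 59833 and 63429 at 188 dpn (-0.21 ± 0.14, adjusted p = 0.387), and its difference was 0.058 when arrays were centred.

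Of 13 glycogen genes, 2 rose and 0 fell, or 15.4% rises against 6.16% of all genes, and 1 held. PHKB, a subunit of phosphorylase kinase, which turns on glycogen breakdown, had 6510.0, 8698 and 9348 at 28 dpn and 12928, 14294 and 21448 at 188 dpn (0.88 ± 0.19) and was 1 of the 2 rises. Of 7 creatine genes, 2 rose and 1 fell, or 28.6% and 14.3% against 6.16% and 14.3% of all genes. The fall, of CKB (-0.99), did not hold. SLC6A8, the creatine transporter, had 999, 1179.7 and 1615 at 28 dpn and 1759, 2186 and 2530.1 at 188 dpn (0.83 ± 0.15) and was the 1 of the 2 rises that held. The stages did not overlap in PHKB or in SLC6A8.

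Of 18 genes of collagens and their processing, 12 fell and 0 rose, or 66.7% against 14.3% of all genes, and 9 held. The median was -0.96, and -1.07 without the 3 arrays. COL1A2, of fibrillar collagen, had 1161, 1683 and 2890.4 at 28 dpn and 327, 506 and 623 at 188 dpn (-1.91 ± 0.35). COL4A2, of basement membranes, had 4274, 4865 and 5333 at 28 dpn and 1260.0, 1632 and 2464 at 188 dpn (-1.54 ± 0.20, adjusted p = 1.42e-05), and COL6A3, the brightest, fell from 15065 to 7543 (adjusted p = 0.00499). SERPINH1, the collagen chaperone, and BMP1, which cleaves procollagen, fell with them, from 2164 to 722 and from 445 to 156.

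Of 25 matrix proteoglycan and matricellular genes, 12 fell and 0 rose, or 48.0% against 14.3% of all genes, and 9 held, or 36.0% against 8.16%. POSTN, periostin, had 418, 1617 and 2398 at 28 dpn and 75.1, 168 and 504 at 188 dpn (-3.08 ± 0.50), and its stages overlap by 28 dpn animal 2, at 418. ASPN, asporin, had 1137, 1717 and 2033 at 28 dpn and 157, 222 and 608 at 188 dpn (-2.65 ± 0.35, adjusted p = 1.78e-05). The laminin chain LAMB1 (from 1476 to 485, -1.61 ± 0.16) and the microfibril protein MFAP5 (from 4244 to 1398, -1.60 ± 0.21) fell without overlap. SPARC, the brightest member, had 38733, 41607 and 50580.2 at 28 dpn and 19847, 24780.3 and 29513 at 188 dpn (-0.82 ± 0.15).

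Of 18 endothelial genes, 9 fell and 1 rose, or 50.0% falls against 14.3% of all genes, and 8 falls held, or 44.4% against 8.16%. PECAM1, a junction protein, had 2979, 3323 and 4349 at 28 dpn and 866, 1024 and 1373 at 188 dpn (-1.68 ± 0.18, adjusted p = 2.05e-06). CDH5, the endothelial cadherin, had 1597, 2488 and 3033 at 28 dpn and 616, 670.3 and 894 at 188 dpn (-1.68 ± 0.18, adjusted p = 2.05e-06). Both probe sets of each gene were lower. The receptor TIE1 was at least 2.73-fold lower (SD 0.35 and 1.22), with stages that overlap, and ENG, endoglin, fell from 262 to 101 (-1.38 ± 0.23). The 1 rise was VEGFA, the vessel growth factor made by fibres, with 4880.0, 6465 and 7741 at 28 dpn and 9473, 9738 and 10322 at 188 dpn (0.63 ± 0.15), but its 4 probe sets disagreed, with 1 higher, 2 lower and differences from -1.18 to 0.63, and its adjusted p was 0.052 without the 3 arrays.

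The summed signal of 4 defining endothelial markers, of which 2 fell, was 5442 to 8310.5 at 28 dpn, 2507 to 3017 in the arrays of bright ALB and 2613 to 3506 in the other 188 dpn arrays. That of 2 measured smooth muscle markers, of which 1 fell, was 2383 to 4200.1, 1311 to 1894 and 1060 to 1838 in the same order. That of 3 measured fat cell markers, of which 1 fell, was 3762 to 8736, 2277 to 4259 and 2777 to 3471. Their part in the vessel and matrix results was not tested.

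Of 10 smooth muscle and pericyte genes, 7 fell and 0 rose, or 70.0% against 14.3% of all genes, and 6 of 10 held, against 8.16%. MCAM had 370.3, 545 and 1117 at 28 dpn and 123, 168 and 279.5 at 188 dpn (-1.82 ± 0.28), and CNN1, the smooth muscle calponin, fell from 2216 to 642 (-1.79 ± 0.38). PDGFRB, the pericyte receptor, fell from 3842 to 1491 (-1.37 ± 0.19), with its other probe set at -0.24. The brightest of the list, DES, desmin, which muscle fibres also express, had 18267, 20817 and 21651 at 28 dpn and 24375, 25690.4 and 30172 at 188 dpn (0.39 ± 0.14, adjusted p = 0.0809) and did not pass.

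Of 19 listed genes of nerve and neuromuscular junction 4 were measured, and 2 of these fell and held. That is 50.0%, against 14.3% of all genes that fell and 8.16% that held, and it rests on few genes. CHRNA1, a subunit of the acetylcholine receptor of the endplate, had 183, 268 and 573 at 28 dpn and 32.7, 82.2 and 123 at 188 dpn (-1.87 ± 0.42). MBP, myelin basic protein, had 756, 909 and 1696 at 28 dpn and 162, 318 and 501 at 188 dpn (-1.76 ± 0.26, adjusted p = 6.07e-05), but 1 of its 4 probe sets was lower and their differences reached 0.91. Of the 3 Schwann cell markers 0 were measured.

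**Figure D4:**
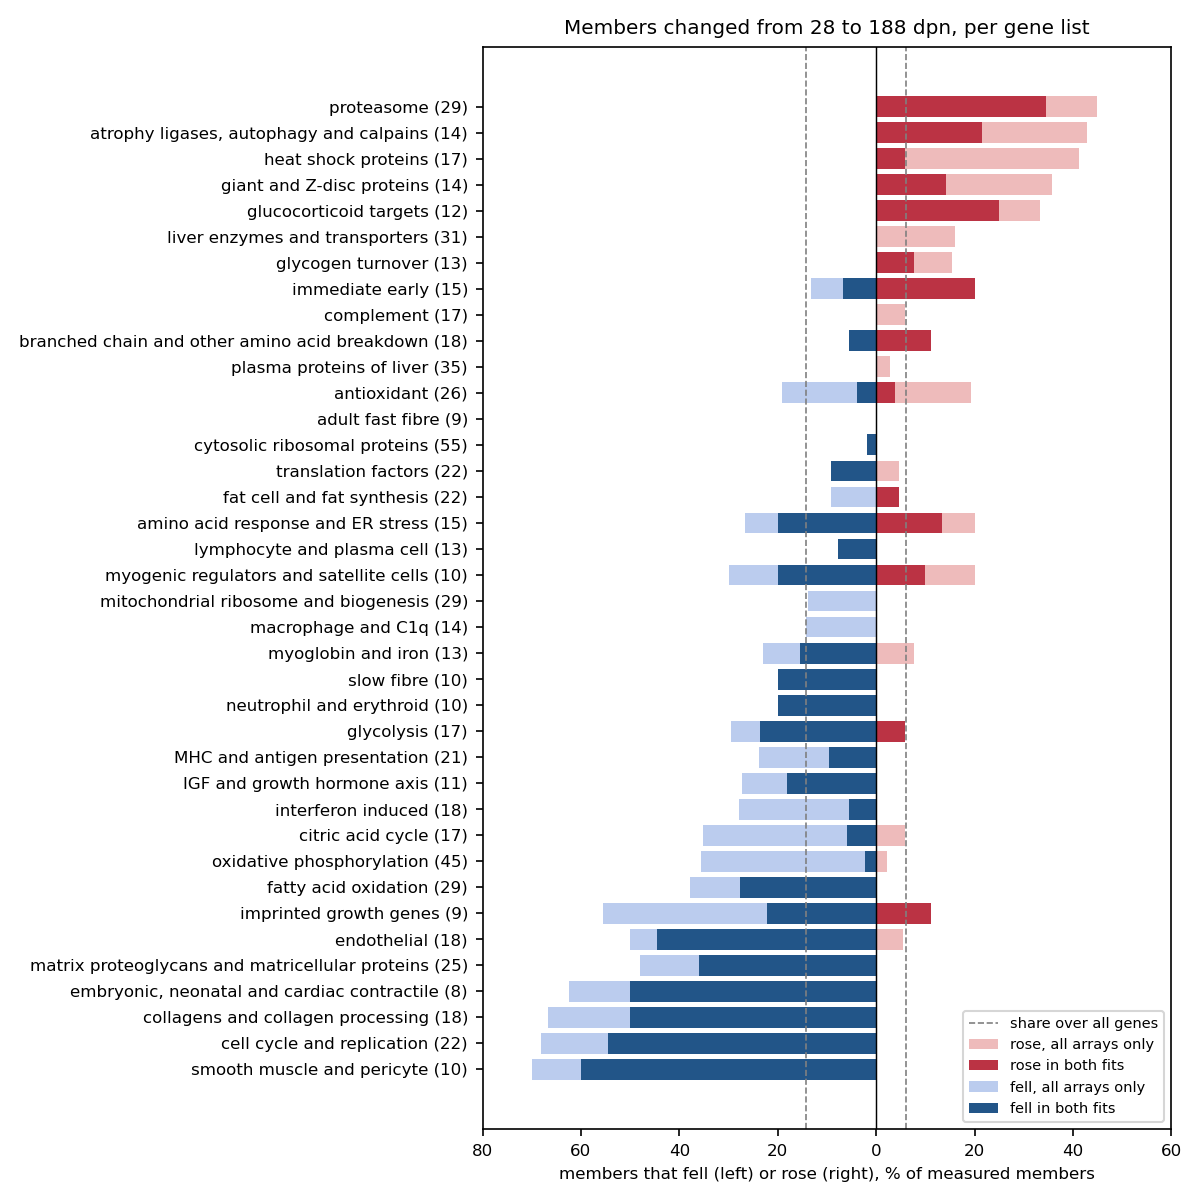
Bars give the share of measured members of each gene list (number in brackets, lists of 8 or more) that fell (left, blue) or rose (right, red) from 28 to 188 dpn, with the dark part for changes that held without the arrays of bright ALB. Dashed lines mark the shares over all genes, 14.3% lower and 6.16% higher. Smooth muscle, cell cycle and collagen lists have the longest bars to the left and the proteasome list the longest to the right, while the bar of oxidative phosphorylation is almost all pale.

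Of 21 genes of MHC and antigen presentation, 5 fell and 0 rose, or 23.8% against 14.3% of all genes, and 2 held, or 9.52% against 8.16%, which is near the share of all genes. SLA-6, a class I gene, had 632, 803 and 1206 at 28 dpn and 241, 286 and 377 at 188 dpn (-1.48 ± 0.29), but genes of this family are near-identical and its second probe set was at 0.05. TAPBP, which loads class I molecules, fell from 551 to 303 (-0.86 ± 0.21). B2M, the light chain of class I molecules and the brightest of the list, had 30759, 32201 and 35098 at 28 dpn and 30780.0, 34020.1 and 36232 at 188 dpn (0.04 ± 0.14, adjusted p = 0.9), while its 9 probe sets ran from -1.97 to 0.37.

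Of 18 interferon-induced genes, 5 fell and 0 rose, or 27.8% against 14.3% of all genes, and 1 held (5.56% against 8.16%), IRF1, with 558, 784 and 1724 at 28 dpn and 254, 277 and 366 at 188 dpn (-1.51 ± 0.31). The list median was -1.48, and -1.47 without the 3 arrays. Its shift per array already spanned -0.91 to 0.76 at 28 dpn, against -1.82 to -1.33 at 188 dpn. ISG15, the brightest, had 798, 2709.7 and 7072 at 28 dpn and 323, 422 and 571 at 188 dpn (-2.43 ± 0.95, adjusted p = 0.0933), and did not pass although its stages did not overlap. CXCR4, a chemokine receptor, was the 1 fall among 13 lymphocyte genes (7.69% against 14.3% of all genes), with 943, 1146 and 1510.0 at 28 dpn and 237, 388 and 789 at 188 dpn (-1.58 ± 0.27), and it held. The 3 measured lymphocyte markers lay under background at both stages.

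Of 12 glucocorticoid targets, 4 rose and 0 fell, or 33.3% against 6.16% of all genes, and 3 of 12 held, against 2.94%. KLF15, a regulator of amino acid use in muscle, had 218, 363 and 412 at 28 dpn and 929, 1028 and 1353 at 188 dpn (1.70 ± 0.23, adjusted p = 2.62e-05). GLUL, glutamine synthetase, had 6691, 8150.1 and 12319 at 28 dpn and 17033, 21909 and 29354 at 188 dpn (1.35 ± 0.23, adjusted p = 2.69e-04), and 1 of its 3 probe sets was higher. In neither gene did the stages overlap, and the list median was 0.79, or 0.61 without the 3 arrays. CRY2, a clock repressor, had 605, 668 and 755 at 28 dpn and 1491, 1869 and 2189.8 at 188 dpn (1.49 ± 0.15, adjusted p = 8.72e-07). It was 1 of 2 rises among 7 clock genes, or 28.6% against 6.16% of all genes. Of the 7, 1 held, or 14.3% against 2.94%. The labels give no hour of sampling.

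Of 15 immediate early genes, 3 rose and 2 fell, or 20.0% and 13.3% against 6.16% and 14.3% of all genes, and 3 and 1 held. Beside FOS, JUN had 2267, 2471 and 8048 at 28 dpn and 8008, 10402 and 10731 at 188 dpn (1.70 ± 0.34), and its stages touch, since 28 dpn animal 2 reached 8048 and 188 dpn animal 5 was at 8008. NR4A3, a nuclear receptor, rose from 82.7 to 249.6 (1.59 ± 0.41) with stages that overlap, and IER3 fell from 319 to 118 (-1.44 ± 0.29). Of 18 genes of amino acid breakdown, 2 rose and 1 fell, or 11.1% and 5.56% against 6.16% and 14.3% of all genes, and all 3 held: GLUL, BCKDHB of the branched chain ketoacid dehydrogenase (from 1198 to 2525, 1.08 ± 0.26), and GOT1, the cytosolic aspartate aminotransferase, with 8447, 10331 and 11397 at 28 dpn and 2438, 3288 and 4249.8 at 188 dpn (-1.59 ± 0.18, adjusted p = 4.27e-06).

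The liver genes that passed the threshold with all arrays lost it without the 3 arrays of bright ALB. Of 35 plasma protein genes of liver, 1 rose and 0 fell, or 2.86% rises against 6.16% of all genes, and 0 held. The list median was 2.13 with all arrays and -0.85 without the 3. Among 17 complement genes 1 rose (5.88%, near the share of all genes) and among 31 liver enzymes and transporters 5 rose (16.1%). Of these rises 0 held, against 2.94% of all genes. The medians of the 2 lists were 0.74 and 1.35 with all arrays and -0.25 and 0.04 without the 3. Most of these genes did not pass, and they differed widely among the 188 dpn animals.

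The 8 largest differences that did not hold were all rises. C5, of complement, ran from 3.42 to 1407 at 188 dpn and was at least 1.14-fold higher with all arrays, but its difference without the 3 arrays was 1.30 (adjusted p = 0.631). PROC, protein C of blood clotting, ran from 6.54 to 2421 and SERPINA3-2, a protease inhibitor, from 37.9 to 6165. UGT2B31, a glucuronosyltransferase, ran from 35.1 to 2482. The low ends of these 4 ranges lie within or near the 28 dpn ranges of 2.12 to 19.9, 8.26 to 16.6, 7.01 to 75.7 and 4.29 to 50.8. GNMT, a methyltransferase of liver, and CYP3A29, a cytochrome P450, kept large differences of 2.63 and 3.48 without the 3 arrays, with adjusted p of 0.0624 and 0.0804, and their stages did not overlap. HPD, of tyrosine breakdown, was under background in both stages and is given no fold.

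Of 119 called genes named here, 6 lost the call when a single animal was left out, and all 6 belong to the 8 that did not hold. Most of the 119 were chosen because they held without 3 older arrays, and the 8 because they did not. The choice thus largely set this outcome, and nothing is read from it about the robustness of the other genes. ANKRD1, C5, HPD, PROC, SERPINA3-2 and UGT2B31 lost it without animal 1 and also without animal 2 of 188 dpn, and all but HPD and ANKRD1 also without animal 3. Single 28 dpn animals ended the same 6 calls too: animal 6 for all 6, animal 5 for all but HPD and UGT2B31, animal 4 for C5, PROC, SERPINA3-2 and UGT2B31, animal 2 for C5, SERPINA3-2 and UGT2B31, animal 1 for PROC and SERPINA3-2, and animal 3 for SERPINA3-2. Their highest adjusted p over the 12 animals left out was 0.0595, 0.0974, 0.0618, 0.0889, 0.122 and 0.100 in the order named.

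The levels at both earlier stages show where the change from 28 to 188 dpn lies in development, as a description without a test. Of the 199 rises that held, 189 had their highest of 4 stage means at 188 dpn. Of the 552 falls that held, 512 had their lowest mean at 188 dpn, and 354 had their highest at 94 dpc. The choice of these genes already sets the order of 28 and 188 dpn, so nothing is read from these counts. ACTC1 had means of 33342 at 94 dpc and 52745 at 1 dpn, and of 29565 at 28 dpn, so the lower level came after 28 dpn. FBXO32 stood at 643 and 821 at those stages, close to its 28 dpn mean of 611. CPT1B was highest at 1 dpn, at 6203, and lower at each later stage.

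**Figure D5:**
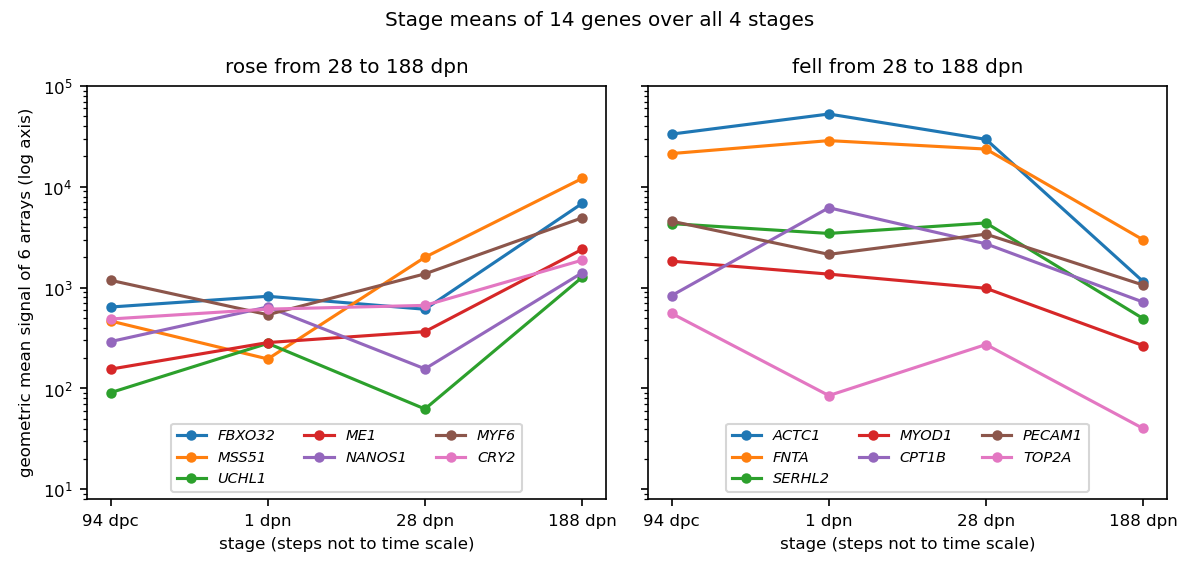
Geometric mean signal of 6 arrays at each of 4 stages, on a log axis with stages evenly spaced, for 7 genes that rose (left) and 7 that fell (right) from 28 to 188 dpn. In all 7 rises the 188 dpn mean is the highest of the 4, as for MSS51 at 12099, and in all 7 falls it is the lowest.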

How the data were processed

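Per the labels, RNA was extracted with TRI Reagent, with a DNase step and column cleaning, and 0.5 µg of it was used per array. The deposited values are signal intensity on a linear scale, 1 per probe set and array, made by the authors with GCOS 1.1.1 per the submitters' processing notes. Each array had been scaled: after trimming 2% from both ends, the mean signal of every array was 498 or 499. Other settings are not given in the sources used here. The 183 control probe sets were left out and 23935 tested on log2 values, with no constant added and no filter. Of these, 10069 had 1 gene symbol, 198 several and 13668 none. A gene was read by its brightest probe set.

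Differences were fitted with limma 3.58.1 in R 4.3.3 (lmFit and eBayes, 24 arrays, 4 stage means, 20 residual degrees of freedom). Tests were two-sided. P-values were adjusted by Benjamini-Hochberg across the probe sets tested, with a threshold of 0.05. The second fit left out 3 arrays of 188 dpn (17 residual degrees of freedom). Background was the 95th percentile of 17 Tag control probe sets, 74.7, which exceeded the mean of 39.2% of probe sets. For a gene with 1 stage below background, the fold is at least the ratio of the brighter mean to the dimmer stage's mean, with each of its arrays taken at background or at its own signal, whichever was higher. The script was tested on simulated data. The number of arrays limits the precision.

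The comparison, the 42 gene lists and the rules were chosen with earlier results of these data known. Named genes are the 14 largest rises and 14 largest falls that held, with stages that do not overlap and the higher stage mean above background, the 8 largest differences that did not hold, and of each list up to 4 members in each direction that held, and the brightest. The choice among these list members was made with their values in view. Lists are described by counts and medians, with no set test. Plots were drawn with matplotlib 3.10.9.

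Alternatives were quantile normalization, centring, 16 or 64 added before log2, no dim probe sets, fewer arrays, array weights, trend and robust eBayes, single animals left out, a stricter threshold, 1 probe set per gene and the mean of a gene's probe sets.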

Additional observations from a re-analysis of the deposited data

Results flagged for a closer look

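Within each stage, single animals were compared with the other 5 on the log2 scale, and values whose gap to the nearest animal exceeded Dixon's 95% critical value are given here. Chance alone marks about 1 in 20 groups. Of 128 named genes in 256 groups, 21 values stood out, and of 42 lists in 84 groups, 6 did.

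At 28 dpn, animal 2 had the highest signal of ATF4 (41285), ENG (374) and JUN (8048) and the lowest of NANOS1 (72.4), PCNA (469), POSTN (418) and RRM2 (69.0). Its cell cycle genes had a median shift of -0.45 from the stage means. Animal 1 was high in MYOD1 (1506) and PECAM1 (4349), animal 3 in IDH3B (2236), and animal 4 was low in CYP3A29 (8.44) and high in HPD (23.3).

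At 188 dpn, animal 2, which had bright ALB, was low in GAPDH (42251), LDHB (6178), MYL1 (57352) and TTN (42770), and its adult fast fibre list had a shift of -0.36 from the 28 dpn means. Animal 1, also of bright ALB, was low in PSMD2 (3446) and in the proteasome list (shift 0.28) and high in PDIA6 (2446). Animal 5 was low in CALR (686) and JUN (8008) and its IGF axis list was the highest (shift 0.032). Animal 4 was high in MYBL2 (36.3). Animal 3 had the lowest shift of the myogenic list, -0.28, and animal 6 the highest of the atrophy, autophagy and calpain list, 0.66. The causes were not tested.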

How the results depend on the processing

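Probe sets higher and lower at 188 dpn numbered 987 and 2511. Centring the arrays gave 2076 and 1224. They were 509 and 1563 without the 3 arrays of bright ALB. Quantile normalization of all arrays before these 3 were left out gave 507 and 891. The counts were 495 and 1361 at an adjusted p of 0.01, and 537 and 1146 with 1 probe set per gene, for which fewer were tested. Quantile normalization alone gave 1572 lower. With single animals left out the counts were 779 to 880 higher and 2036 to 2311 lower. Calls that held were 1884, and 1245 with quantile normalization in both fits. No paired analysis was possible because the animal numbers follow accession order and pair no samples.

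Of the named genes, ATP5E (0.052), GAPDH (0.058) and MYL1 (0.20) turned sign with arrays centred, and MYL1 also without the arrays of bright ALB, with all 4 stages or with 28 and 188 dpn only (0.0062). With the mean of all probe sets B2M (-0.62), DES (-0.074) and VEGFA (-0.59) did. VEGFA had passed and the other 5 had not. That mean also ended the calls of CAST, GCLM, MBP, MYF6, PDIA3, SLA-6 and UBE2C, and the fit of only 28 and 188 dpn those of C5, NR4A3, PROC, SERPINA3-2 and UGT2B31. Quantile normalization of all arrays, with those of bright ALB then left out, ended 29 of the 119 calls. Of these, 16 were of genes that otherwise held, which the report names. Adding 64 before log2 ended the call of HPD. Centring moved the median of 25 of 42 lists by more than the spread between animals. Signals under background limit the cell cycle folds. The cause of these shifts was not tested.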

Other observations

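Single genes of the redox, iron and fat lists changed from 28 to 188 dpn. Of 26 antioxidant genes, 5 rose and 5 fell, or 19.2% each against 6.16% and 14.3% of all genes, and 1 of each held, or 3.85% against 2.94% and 8.16%. GCLM, of glutathione synthesis, had 106, 132 and 181 at 28 dpn and 195, 319 and 537 at 188 dpn (1.20 ± 0.26), and the peroxiredoxin PRDX1 had 4483, 5690.3 and 6936 at 28 dpn and 2559.8, 3652 and 4093 at 188 dpn (-0.71 ± 0.17). The second probe set of GCLM was at 0.32. Redox genes outside the list were not counted, among them GPX2 (-2.50), GPX7 (-1.98) and GSTA4 (-0.83), which fell and held. ALAS2, the first enzyme of heme synthesis in red cell precursors, had 616, 826 and 1404 at 28 dpn and 73.7, 134 and 450.2 at 188 dpn (-2.45 ± 0.41, adjusted p = 2.41e-04), and its 2 highest 188 dpn values were in arrays of bright ALB. Of 22 genes of fat cells and fat synthesis, 1 rose, ME1, and 2 fell, and of these only ME1 held. In the lists that follow the shares lie near those of all genes or rest on at most 3 genes. Of 13 genes of myoglobin and iron, 1 rose and 3 fell, of which 2 falls held, and of 10 neutrophil and erythroid genes 2 fell and held, with ALAS2 in both lists. Of 14 macrophage and C1q genes, 2 fell and 0 held, and of 29 genes of mitochondrial ribosome and biogenesis 4 fell (13.8%) and 0 held. Of 5 measured genes of calcium handling, 0 passed. The summed signal of 2 measured erythroid markers was 892 to 1782 at 28 dpn, 392 to 803 in the arrays of bright ALB and 321 to 477 in the other 188 dpn arrays, and its part in the iron genes was not tested.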
